A study of Homo sapiens with 16 samples.

Results

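MAFF, MAFG and MAFK encode the small MAF proteins, NFE2L2 encodes NRF2, BACH1 encodes the BACH1 repressor, and KEAP1 encodes the adaptor that holds NRF2 in check. The set was named by gene symbol, with no threshold on measured values but with earlier results of these data known, and holds 6 of the 19970 protein-coding genes of chromosomes 1 to 22 and X in GENCODE 44. H3K27ac, the acetylation of histone H3 at lysine 27 that marks active promoters and enhancers, was read at each gene in 2 ways. The first was the peaks that overlap the 2 kb on either side of the start site of its canonical transcript. The second was the length under peaks in its locus, defined as the annotated gene body extended by 50 kb on each side.

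Small MAF proteins are short basic leucine zipper factors that bind DNA but carry no activation domain, so their effect depends on the partner. Paired with NRF2 they occupy antioxidant response elements and activate detoxification, glutathione and NADPH genes, and paired with BACH1 they occupy the same kind of element and repress such genes until heme displaces BACH1. KEAP1 is the substrate adaptor of a CUL3 ubiquitin ligase that keeps NRF2 short-lived until oxidants or electrophiles modify it.

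Chromatin was taken from MDA-MB-231 and Hs578T, established human triple-negative breast cancer lines, each as CRISPR control cells and as cells with the Fn14 gene TNFRSF12A knocked out (Fn14 KO). Fn14 is the receptor of the cytokine TWEAK. All cells were serum-starved for 8 h and then left untreated or given TWEAK at 10 ng/ml for 48 h, with the cytokine replenished after 24 h. This gave 8 groups of 2 lists of peaks, 1 list per sample, and the design asks whether TWEAK changes acetylation and whether the change needs the receptor. The knockouts were made with an inducible Cas9 vector and a pair of guides and checked by western blot and sequencing. Their genotyping primers are listed by the study among those for CRISPR clones, and how many clones gave the profiled cells was not given in the sources used here. The study's methods call the ChIP-seq replicates biological and say of cell-line experiments in general that independent repeats were done on different days. Whether the 2 lists of each group came from such repeats is not stated, and the p-values measure only the spread between these samples. The measurements are of chromatin and not of RNA or protein, and a smaller signal in every cell cannot be told apart from a signal in fewer cells.

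The 16 lists held 39544 to 47197 peaks that covered 64.2 to 88.9 Mb, and the lists carry no read counts, so sequencing depth is unknown. The median fold enrichment over all start-site peaks, a ratio over local background given by the authors' peak caller, was 10.1 to 11.3 in MDA-MB-231 control lists, 7.74 to 9.05 in MDA-MB-231 Fn14 KO lists and 8.66 to 9.47 in Hs578T lists. The mesenchymal markers VIM, ZEB1, CAV1, AXL and FN1 had a start-site peak in 16 of 16 lists, and of the luminal markers ESR1, PGR, GATA3 and CDH1 had one in 0, FOXA1 in 2, ERBB2 in 12 and KRT8 and KRT18 in 16. The white blood cell markers PTPRC and CD3E had none. At TNFRSF12A itself, the highest start-site fold enrichment was 32.6 to 38.2 in the 8 control lists and 16.2 to 22.3 in the 8 Fn14 KO lists, so the genotypes did not overlap there. Of all 10909 start sites tested, 14.5% were called lower and 0.220% higher in untreated Fn14 KO cells (limma adjusted p under 0.05). Under TWEAK the shares were 41.1% and 3.32%. The share of start sites without overlap is not given here.

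All 6 genes had exactly 1 start-site peak in every list. On hg38, MAFF lies on the plus strand at chr22:38200767-38216507, MAFG on the minus strand at chr17:81918270-81927735, MAFK on the plus strand at chr7:1530702-1543043, NFE2L2 on the minus strand at chr2:177218667-177392756, BACH1 on the plus strand at chr21:29194071-29630751 and KEAP1 on the minus strand at chr19:10486125-10503558. The records of NFE2L2 and BACH1 are long because minor transcripts reach far past the canonical ones, whose start sites are at position 177264727 of chromosome 2 and position 29298922 of chromosome 21. When the peaks of the 16 lists were merged and those found in at least 2 lists kept, the 6 loci held 55 regions, 7 at MAFF, 8 at MAFG, 6 at MAFK, 12 at NFE2L2, 17 at BACH1 and 5 at KEAP1. Of the 55, 28 lay at a start site of a protein-coding transcript (the gene's own or a neighbour's), 10 at another exon, 11 in introns and 6 between genes. The loci include neighbouring genes, and a peak within 50 kb is not thereby assigned to the member.

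The sequences of the regions with the clearest changes with TWEAK are given as the 300 bases at the centre of each region, read from the plus strand of hg38. Capitals mark exact matches, on either strand, to the AP-1 motif TGANTCA, to the antioxidant response element core TGACNNNGC bound by small MAF heterodimers, or to the NF-kB form GGNNTTTCC. AP-1 and antioxidant matches can overlap. The first pair are the regions that gained a peak with TWEAK in control cells of both lines, and the next 3 are the regions present in all 16 lists whose fitted fold enrichment at least doubled. They lie at chr2:177400560-177400859 (an intron of AGPS), chr21:29332556-29332855 (an intron of BACH1), chr2:177172029-177172328 (between genes, downstream of NFE2L2), chr21:29196296-29196595 (an intron of the BACH1 transcripts that start upstream) and chr21:29656777-29657076 (an intron of GRIK1). Regions are named by the distance in kb from their centre to the member's start site, negative for upstream.
NFE2L2 gained region at -136.0 kb: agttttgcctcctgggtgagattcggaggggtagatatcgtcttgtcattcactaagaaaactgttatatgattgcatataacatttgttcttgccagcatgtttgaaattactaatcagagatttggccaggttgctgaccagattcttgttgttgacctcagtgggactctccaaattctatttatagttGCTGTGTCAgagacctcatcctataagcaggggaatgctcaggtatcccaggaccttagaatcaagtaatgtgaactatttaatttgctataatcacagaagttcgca
BACH1 gained region at 33.8 kb: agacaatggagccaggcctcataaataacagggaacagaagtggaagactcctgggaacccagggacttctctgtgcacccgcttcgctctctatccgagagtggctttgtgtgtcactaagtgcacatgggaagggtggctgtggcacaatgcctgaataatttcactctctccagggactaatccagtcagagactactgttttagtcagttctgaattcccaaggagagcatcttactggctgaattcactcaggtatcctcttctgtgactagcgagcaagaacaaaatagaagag
NFE2L2 region at 92.5 kb: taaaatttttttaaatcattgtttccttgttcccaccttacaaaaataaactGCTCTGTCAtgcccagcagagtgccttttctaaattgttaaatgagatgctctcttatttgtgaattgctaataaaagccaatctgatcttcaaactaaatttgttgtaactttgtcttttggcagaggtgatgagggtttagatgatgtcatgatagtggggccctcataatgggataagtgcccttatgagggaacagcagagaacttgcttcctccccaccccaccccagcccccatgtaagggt
BACH1 region at -102.5 kb: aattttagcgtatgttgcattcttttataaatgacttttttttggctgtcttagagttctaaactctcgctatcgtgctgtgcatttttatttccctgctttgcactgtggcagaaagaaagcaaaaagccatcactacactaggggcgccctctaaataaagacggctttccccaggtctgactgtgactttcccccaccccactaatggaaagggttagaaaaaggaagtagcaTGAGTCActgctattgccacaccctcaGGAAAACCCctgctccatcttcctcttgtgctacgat
BACH1 region at 358.0 kb: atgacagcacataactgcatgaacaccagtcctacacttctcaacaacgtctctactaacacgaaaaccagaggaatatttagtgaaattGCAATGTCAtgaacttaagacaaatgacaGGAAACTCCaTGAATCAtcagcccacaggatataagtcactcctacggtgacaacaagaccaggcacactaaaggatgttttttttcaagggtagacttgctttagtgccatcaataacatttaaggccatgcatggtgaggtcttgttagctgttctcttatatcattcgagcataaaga

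Counting from the first base printed, an antioxidant response element core began at base 193 of the gained NFE2L2 region, at base 53 of the NFE2L2 region at 92.5 kb and at base 91 of the BACH1 region at 358.0 kb. The BACH1 region at -102.5 kb held an AP-1 match at base 237 and an NF-kB match at base 264, and the one at 358.0 kb held these at bases 130 and 120. The gained BACH1 region held none of the 3 motifs in this window. Such matches are common: of 55070 consensus regions, the central 300 bases held AP-1 in 26.1%, the antioxidant core in 13.5% and the NF-kB form in 6.70%. Promoter sequences from RefSeq (250 bases before the start site, same letters as hg38) were found for 5 of the 6 genes, MAFK having no entry. The BACH1 promoter is shown because it had the only AP-1 match among the 5, on the plus strand at chr21:29298672-29298921. The only other match was an antioxidant response element core at base 129 of the MAFF promoter, which is not shown. Of 35116 promoters of all genes, read over 300 bases, 7.71% held AP-1 and 13.3% the antioxidant core.
BACH1 promoter: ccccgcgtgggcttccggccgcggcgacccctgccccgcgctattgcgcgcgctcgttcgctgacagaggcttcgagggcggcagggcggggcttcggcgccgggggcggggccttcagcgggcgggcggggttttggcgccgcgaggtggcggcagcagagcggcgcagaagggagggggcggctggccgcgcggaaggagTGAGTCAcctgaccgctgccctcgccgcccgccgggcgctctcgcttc

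Among the small MAF genes, MAFK lost covered length with TWEAK in control cells of both lines, while MAFF and MAFG did not pass the test. At MAFK, peaks covered 26.8 and 26.8 kb in untreated and 19.9 and 20.7 kb in TWEAK-treated MDA-MB-231 control lists. In Hs578T control lists they covered 28.4 and 29.7 kb untreated and 21.0 and 23.2 kb with TWEAK. Each line's TWEAK lists therefore sat below both of its untreated lists. In Fn14 KO cells the treatments overlapped in both lines, with 21.9 and 19.0 kb untreated and 20.5 and 19.3 kb with TWEAK in MDA-MB-231, and 33.0 and 33.9 kb untreated and 33.1 and 37.2 kb with TWEAK in Hs578T. Untreated Fn14 KO lists of MDA-MB-231 thus already lay near that line's TWEAK-treated control lists and below its untreated ones. The mean change in control cells was -6.67 kb (-6.47 in MDA-MB-231 and -6.88 in Hs578T), against 0.58 kb in Fn14 KO cells. The exact two-sided permutation test gave p = 0.0556 for the control change, the smallest its 36 arrangements allow, and p = 0.0185 for the difference between genotypes of -7.25 kb. In limma-trend, fitted to the covered length of 17915 genes, the control change had a standard error of 1.25 kb and an adjusted p of 0.00229 and the difference an adjusted p of 0.0284. The difference kept an adjusted p under 0.05 in 7 of the 16 fits that each left out 1 list, with a highest value of 0.0845.

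BACH1, the repressor, went the other way. Its locus had 26.6 and 29.7 kb under peaks in MDA-MB-231 control lists without TWEAK and 34.8 and 36 kb with TWEAK. Hs578T control lists had 33.1 and 33.6 kb untreated and 35.3 and 42.3 kb with TWEAK. All 4 TWEAK lists of control cells lay above both untreated lists of their line. Fn14 KO lists of MDA-MB-231 had 34.6 and 28.3 kb untreated and 31.1 and 27.4 kb with TWEAK, which overlapped. Those of Hs578T had 34.0 and 35.97 kb untreated and 33.2 and 32.5 kb with TWEAK, lower with the cytokine. The mean change was 6.33 kb in control cells (7.26 and 5.41 in the lines; exact permutation p = 0.0556) and -2.16 kb in Fn14 KO cells, and the difference of 8.49 kb had an exact permutation p of 0.0123. The limma-trend fit gave the control change a standard error of 1.92 kb and an adjusted p of 0.0331, and the difference an adjusted p of 0.0872, which became 8.87 kb with an adjusted p of 0.00257 on lengths scaled to the same total per list. The control call was the less steady of the pair: it held in 2 of the 8 fits that left out 1 list, with adjusted p up to 0.139. It was lost without any one of the MDA-MB-231 lists except untreated replicate 2 and without any one of the Hs578T lists except TWEAK replicate 1, and on scaled lengths the change was 7.48 kb with an adjusted p of 0.000242. Much of the change lay outside the canonical transcript: in that transcript extended by 50 kb, the control change was 1.80 kb (exact permutation p = 0.167) and the difference 3.11 kb (exact permutation p = 0.0139).

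The other 4 genes did not pass the test on covered length with TWEAK. NFE2L2 moved by 2.29 kb in control cells (limma adjusted p = 0.480), MAFF by -0.72 kb (0.658), MAFG by -1.22 kb (0.673) and KEAP1 by -0.59 kb (0.210). The NFE2L2 locus spanned 23.2 to 39.6 kb over the 16 lists, MAFF 17.1 to 25.6 kb, MAFG 24.0 to 32.7 kb and KEAP1 2.75 to 4.54 kb. Of the 6 members, 1 was thus higher and 1 lower with TWEAK in control cells, where 7.54% of all genes tested were higher and 11.3% lower. For the difference between genotypes 0 were higher and 1 lower, beside 3.36% and 1.92% of all genes. In Fn14 KO cells no gene at all was called by limma on either measure (0% in each direction). There 95 genes were higher and 226 lower on covered length at an unadjusted p under 0.05, and 86 and 197 of 10909 on start-site fold enrichment, and no other tool was run across genes.

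**Figure D1:**
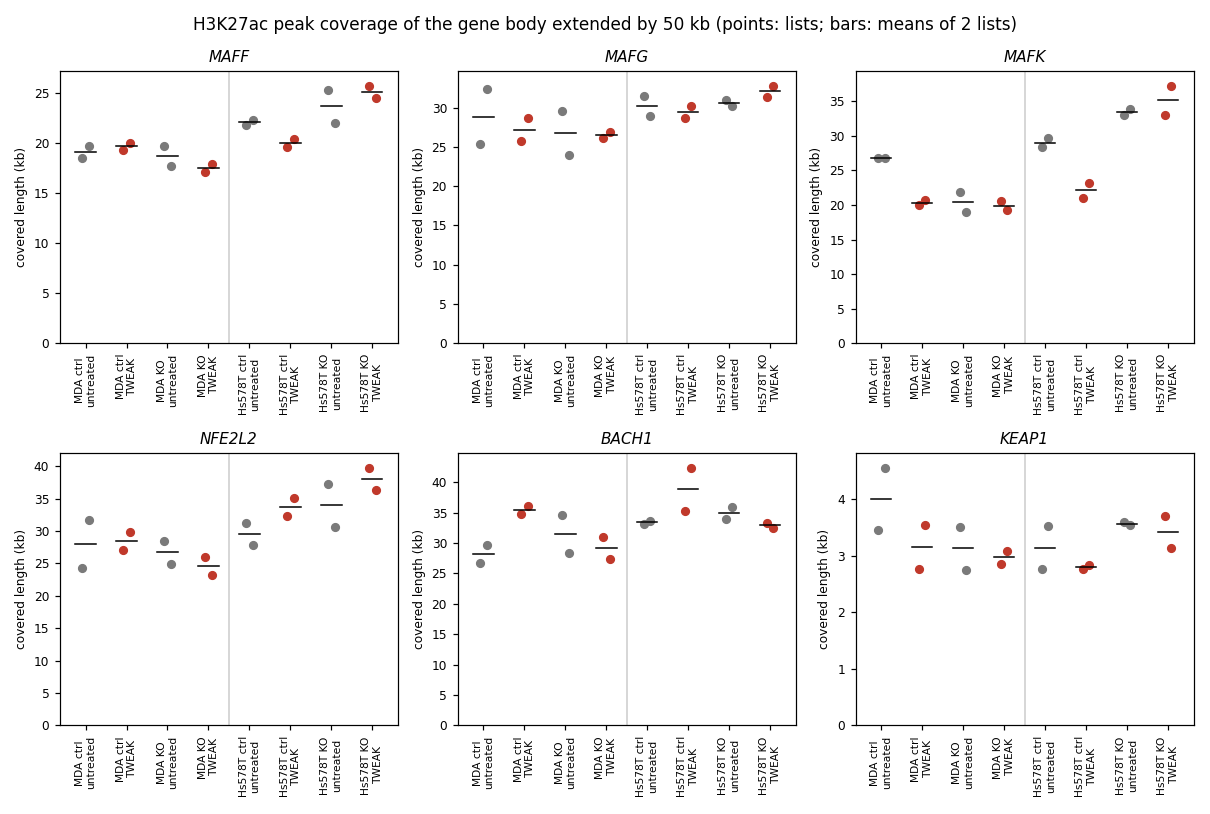
Length under H3K27ac peaks (kb, vertical axis from 0) in the locus of each of the 6 genes, 1 point per list, by line, genotype and treatment, with the mean of each pair of lists. MAFK falls from 26.8 and 26.8 to 19.9 and 20.7 kb in MDA-MB-231 control lists given TWEAK and from 28.4 and 29.7 to 21.0 and 23.2 kb in Hs578T control cells. BACH1 goes from 26.6 and 29.7 to 34.8 and 36 kb in MDA-MB-231 control lists and from 33.1 and 33.6 to 35.3 and 42.3 kb in those of Hs578T.

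At the start sites, NFE2L2 was the only member called with TWEAK in control cells. The highest fold enrichment near its start site was 28.7 and 29.3 in untreated and 32.8 and 34.4 in TWEAK-treated MDA-MB-231 control lists. In Hs578T control lists it was 23.01 and 18.6 untreated and 26.6 and 25.7 with TWEAK. In both lines the TWEAK pair lay above the untreated pair. Fn14 KO lists overlapped between treatments, with 24.5 and 19.7 against 20.6 and 19.8 in MDA-MB-231 and 19.5 and 21.98 against 20.3 and 21.5 in Hs578T. The mean change was 4.96 in control cells (exact permutation p = 0.0556) and -0.86 in Fn14 KO cells, a difference of 5.83 (exact permutation p = 0.0216). On the log2 scale the limma-trend fit gave 0.27 with a standard error of 0.09 and an adjusted p of 0.0234 for the control change, and an adjusted p of 0.0893 for the difference. The control call held in 4 of 8 fits without 1 list. It was lost without MDA-MB-231 untreated replicate 1 or TWEAK replicate 2, or Hs578T untreated replicate 2 or TWEAK replicate 1, with adjusted p up to 0.173. It was also lost when values were divided by the median over all peaks of the list (0.20, adjusted p = 0.0962) and kept after centring, the subtraction of each list's median log2 value over start sites (0.23, adjusted p = 0.0249).

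MAFG, which forms heterodimers with NRF2 and BACH1 like its relatives, had start-site values of 31.0 and 23.4 untreated and 31.6 and 30.5 with TWEAK in MDA-MB-231 control lists. Its values were 21.2 and 16.8 untreated and 22.3 and 16.01 with TWEAK in Hs578T control lists. The treatments overlapped in both lines, and the mean change of 2.01 did not pass the test (limma adjusted p = 0.579). MAFF changed by 1.04 (0.567), MAFK by -3.89 (0.188), BACH1 by 0.54 (0.789) and KEAP1 by 2.17 (0.363). Against the 1 member higher and 0 lower, 13.4% of all 10909 start sites tested were higher and 7.32% lower, and for the difference between genotypes, in which 0 members were called, 7.50% and 2.70%.

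The BACH1 start site of the canonical transcript stayed between 14.4 and 18.1 in the 8 control lists, while a start site far upstream did not. Starting points of 4 other BACH1 transcripts, at positions 29194071 and 29194147, lie 104.9 and 104.8 kb upstream of the canonical one and 502 and 426 bp before the region at -102.5 kb (chr21:29194573-29198318). A long noncoding gene, LINC00189, starts at position 29193480 next to them. With the start sites of all protein-coding BACH1 transcripts pooled, the difference in TWEAK effect between genotypes was 11.7 (exact permutation p = 0.00154, the smallest possible), where with the canonical start site it was 0.58 (p = 0.657, same exact test).

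**Figure D2:**
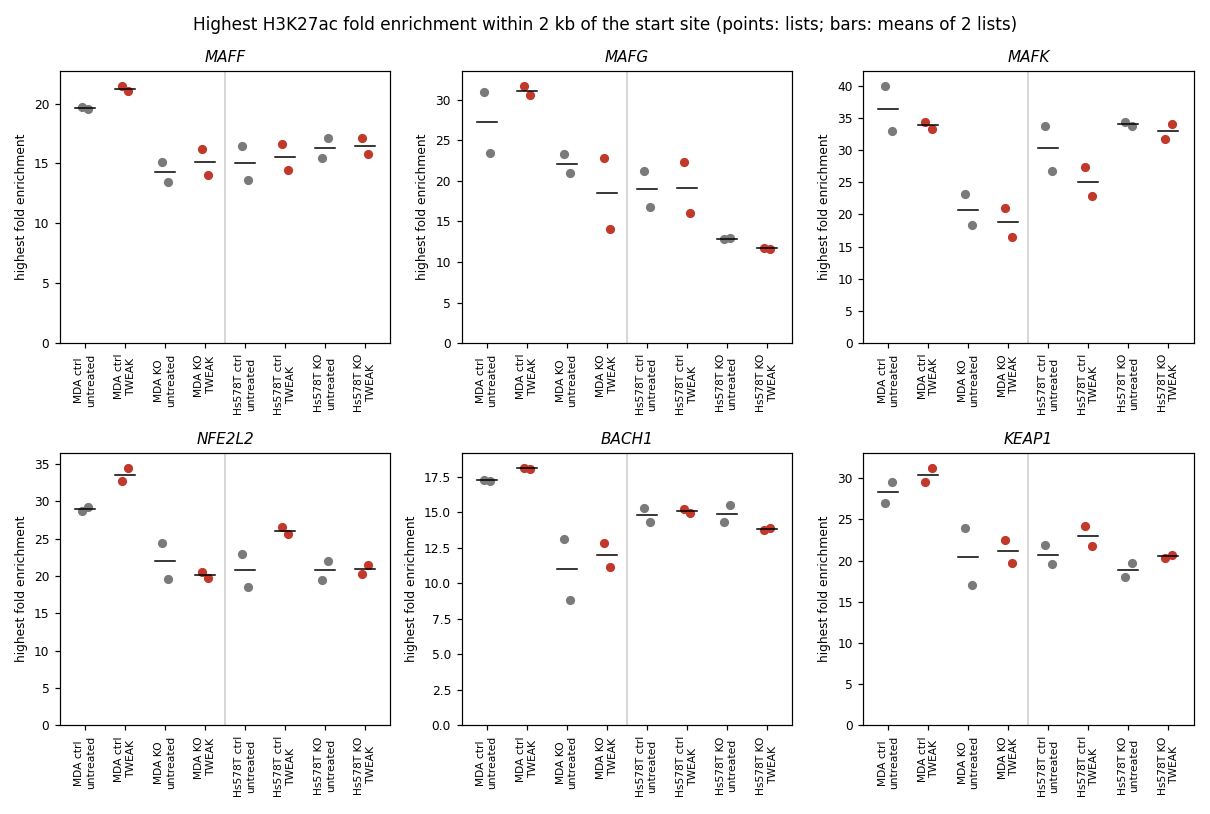
Highest fold enrichment of a whole peak that overlaps the 2 kb on either side of the canonical start site (vertical axis from 0) for each gene. There is 1 point per list, by line, genotype and treatment, with the mean of each pair. NFE2L2 goes from 28.7 and 29.3 to 32.8 and 34.4 in MDA-MB-231 control lists given TWEAK, and MAFG is lower in Fn14 KO than in control lists of both lines.

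The changes were then read region by region. Fold enrichment was compared with limma-trend over the 28337 regions that had a peak in all 16 lists, of which 41 were in member loci; this test was added after values had been seen, and the regions named from it were chosen by their values. In control cells 13 of the 41 were higher and 4 lower with TWEAK, where 26.0% and 16.1% of all regions were higher and lower. The difference between genotypes was higher at 9 and lower at 2, where all regions gave 20.1% and 8.47%. In Fn14 KO cells 0 were called among the members and 0% in each direction among all regions, with 154 regions higher and 726 lower at an unadjusted p under 0.05. Centring each list on its median moved the median control change of all regions from 0.06 to -0.02 on the log2 scale and turned the 13 and 4 into 11 and 7, all 5 regions of the MAFK locus and 2 of the NFE2L2 locus being then lower.

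The BACH1 locus held 5 of the higher regions and no lower one. The region at -102.5 kb, beside the upstream start sites, had a fold enrichment of 13.5 and 13.9 untreated and 28.1 and 31.7 with TWEAK in MDA-MB-231 control lists. Hs578T control lists gave 12.98 and 11.3 untreated and 21.5 and 23.01 with TWEAK. Every TWEAK value was above every untreated value of both lines. Fn14 KO lists stayed at 16.2, 12.98, 12.9 and 11.8 in MDA-MB-231 and at 12.1, 12.1, 12.04 and 11.5 in Hs578T, in the order untreated then TWEAK. The log2 change was 1.00 in control cells (standard error 0.10, limma adjusted p = 2.38e-14) and exceeded that in Fn14 KO cells by 1.14 (adjusted p = 2.22e-10).

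A region at 358.0 kb (chr21:29655613-29658241), within an intron of the glutamate receptor gene GRIK1, gave a change of similar size. It had 9.37 and 10.7 untreated and 18.3 and 23.6 with TWEAK in MDA-MB-231 control lists and 8.69 and 9.47 against 19.4 and 19.9 in Hs578T. The log2 change was 1.09 (standard error 0.10, adjusted p = 9.29e-15) and the difference from Fn14 KO cells was again 1.14. The intronic BACH1 region at -90.1 kb (chr21:29207138-29210506) rose by 0.72 (adjusted p = 1.51e-07). The regions at -116.4 kb, between genes, and -66.8 kb, intronic, rose by 0.44 and 0.30, the last in 12 of 16 fits without 1 list and not after centring (adjusted p = 0.0591).

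At NFE2L2, 4 regions rose and 0 fell. The strongest was the region at 92.5 kb (chr2:177170860-177173498), between genes and downstream, with 4.25 and 4.58 untreated and 11.1 and 10.5 with TWEAK in MDA-MB-231 control lists. Hs578T control lists had 5.28 and 4.52 untreated and 9.22 and 9.36 with TWEAK. In the 8 Fn14 KO lists the value was 4.05 to 5.83, below all 4 TWEAK lists of control cells. The log2 change was 1.11 (standard error 0.12, adjusted p = 1.81e-12) and the difference from Fn14 KO cells 1.24. The region at 12.7 kb (chr2:177250517-177253546), over an exon of NFE2L2, rose by 0.60 (adjusted p = 2.22e-05), the one at 97.3 kb by 0.35 and the start-site region at 0.4 kb by 0.27, the same peak as in the start-site comparison. After centring the same number rose, and the regions at -128.6 kb (-0.31, adjusted p = 0.0157) and -132.7 kb (-0.29, adjusted p = 0.00179) were lower, the first with a difference from Fn14 KO cells of -0.39 (adjusted p = 0.0407).

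The MAFK locus alone had only lower regions among those called, 4 of its 5. The region at 24.9 kb (chr7:1553844-1557294), at a start site of TMEM184A, had 10.3 and 8.64 untreated and 4.87 and 5.28 with TWEAK in MDA-MB-231 control lists. It had 13.8 and 11.4 untreated and 6.03 and 7.01 with TWEAK in Hs578T control lists. Fn14 KO lists of Hs578T stayed between 14.2 and 16.3, and those of MDA-MB-231 between 4.89 and 7.81. The untreated ones of MDA-MB-231, at 7.64 and 6.98, were already below both untreated control lists. The log2 change was -0.92 in control cells (standard error 0.12, adjusted p = 4.12e-10), and its difference from Fn14 KO cells was -0.81. The region at -24.6 kb, at a start site of the Integrator subunit gene INTS1, fell by 0.57 on the log2 scale (adjusted p = 0.000110), the one between genes at -13.3 kb by 0.35 (adjusted p = 0.00516) and the one at 37.9 kb, at a start site of the proteasome assembly gene PSMG3, by 0.24 (adjusted p = 0.0258). The difference from Fn14 KO cells was -0.69 at -24.6 kb (adjusted p = 0.00171) but did not pass at -13.3 kb (-0.12, adjusted p = 0.579), where Fn14 KO cells gave -0.22, nor at 37.9 kb (-0.15, adjusted p = 0.397, or -0.26 and 0.0328 after centring). The control call at 37.9 kb held in 11 of 16 fits without 1 list. MAFK's own start-site region gave -0.18 (adjusted p = 0.109) and passed the test after centring (-0.25, adjusted p = 0.0277). The mean loss of covered length was spread over the same 5 regions, with -1741 bp at -24.6 kb, -2231 bp at -13.3 kb, -1650 bp at 4.3 kb, -622.5 bp at 24.9 kb and -428.5 bp at 37.9 kb.

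MAFF had 2 higher regions. The region at -22.7 kb (chr22:38175938-38182565), at a start site of the phospholipase gene PLA2G6, had 11.3 and 12.2 untreated and 19.9 and 16.9 with TWEAK in MDA-MB-231 control lists. Hs578T control lists had 10.5 and 10.1 against 15.4 and 14.1, and the 8 Fn14 KO lists lay between 9.23 and 12.2. The log2 change was 0.58 (standard error 0.10, adjusted p = 1.65e-06) and the difference from Fn14 KO cells 0.66. The region at 27.9 kb, over an exon of TMEM184B, rose by 0.22 (adjusted p = 0.0424) and did not pass after centring (adjusted p = 0.117). In Fn14 KO cells it gave -0.28, which was not called, with both TWEAK lists of each line below both untreated lists. The genotype difference of 0.50 there thus included a fall in Fn14 KO cells as well as the rise in control cells. MAFG had 2 higher regions at neighbours' start sites, 0.43 at the sirtuin gene SIRT7 (10.0 kb, adjusted p = 0.00230) and 0.26 at ARHGDIA (58.5 kb, adjusted p = 0.0198). For neither MAFG region did the difference between genotypes pass the test, and both KEAP1 regions found in all lists were uncalled.

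**Figure D3:**
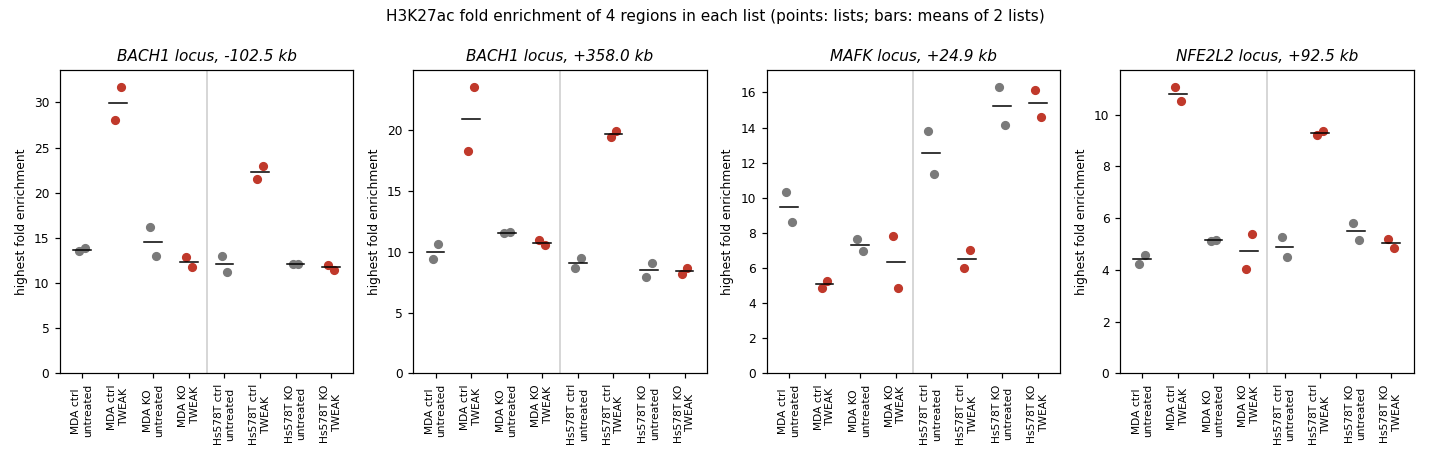
Fold enrichment of the 4 member regions with the largest control change (vertical axis from 0), 1 point per list, by line, genotype and treatment, with the mean of each pair. With TWEAK the BACH1 regions at -102.5 and 358.0 kb and the NFE2L2 region at 92.5 kb move up, and the MAFK region at 24.9 kb moves down, in control cells of both lines, while the Fn14 KO pairs stay close together or overlap.

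**Figure D4:**
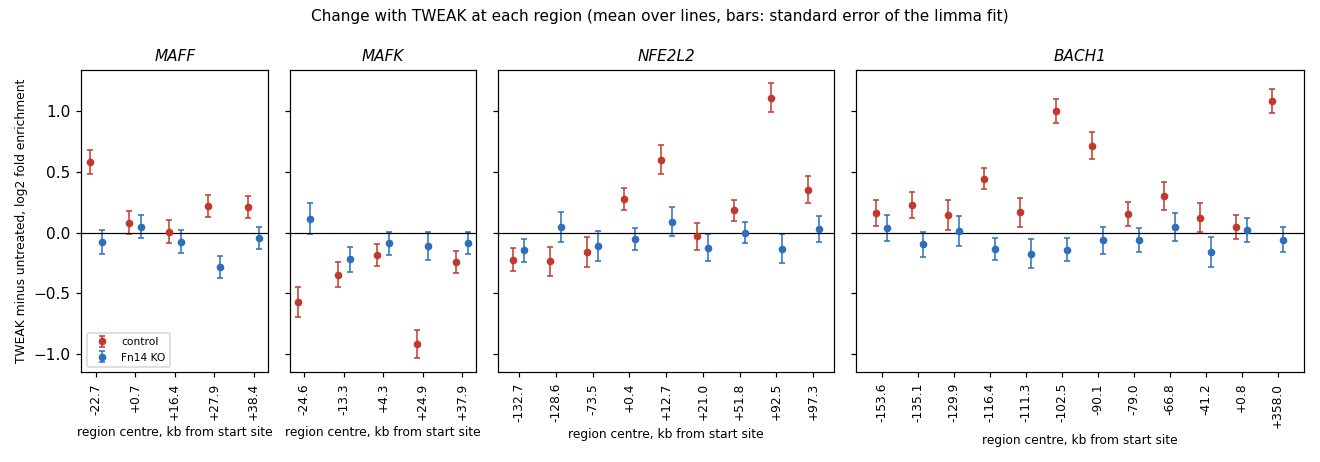
Change in log2 fold enrichment with TWEAK at regions found in all 16 lists, for control and Fn14 KO cells, with limma standard errors, ordered by member. Shown are 5 regions of MAFF, 5 of MAFK, 9 of NFE2L2 and 12 of BACH1, and those of MAFG and KEAP1 are not drawn. Control changes span -0.92 at MAFK to 1.11 at NFE2L2.

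Presence and absence of peaks gave few changes. With a peak in both TWEAK lists and neither untreated list counted as gained, MDA-MB-231 control cells gained 3 of the 55 regions and Hs578T control cells 2, where 5.58% and 5.09% of all 55219 consensus regions were gained. They lost 1 each, where 4.49% and 4.65% were lost. In Fn14 KO cells 0 were gained in either line (0.321% of all regions for MDA-MB-231, 1.05% for Hs578T), with 1 lost in MDA-MB-231 (1.35%) and 0 in Hs578T (0.829%). The 2 regions gained in both lines, against 2.48% of all regions gained and 1.34% lost in both, were the pair printed first among the sequences. The NFE2L2 one (chr2:177400254-177401165) had a fold enrichment of 2.96, 4.14, 2.99 and 3.42 in the 4 TWEAK lists of control cells, and the BACH1 one (chr21:29331915-29333496) had 3.30, 4.36, 2.89 and 3.06. Neither had a peak in any of the other 12 lists. Both are weak: with only peaks of a −log10 q of at least 2, the NFE2L2 region was no longer called and the BACH1 region was called in MDA-MB-231 alone.

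The remaining region gained in 1 line was chr21:29341493-29343633, over an exon of BACH1, in MDA-MB-231. With only peaks of a −log10 q of at least 2, and also with lists trimmed to equal peak numbers, it was called gained in Hs578T and not in MDA-MB-231. The lost ones were chr22:38172278-38173560, in an intron of PLA2G6 near MAFF, in control cells of Hs578T and also in MDA-MB-231 with Fn14 KO, and chr19:10517496-10518160, at a start site of S1PR5 near KEAP1, in MDA-MB-231 control cells. A region across the 3' end of MAFK (chr7:1541787-1544920) had a peak in the 4 Hs578T Fn14 KO lists and in no other, with a fold enrichment of 3.27 and 2.68 untreated and 2.72 and 2.70 with TWEAK.

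Between genotypes, MAFG and NFE2L2 had lower start-site enrichment in Fn14 KO than in control cells under TWEAK, and this held after centring. MAFG was at 22.8 and 14.1 in TWEAK-treated MDA-MB-231 Fn14 KO lists, below 31.6 and 30.5 in control lists, and at 11.8 and 11.6 in Hs578T, below 22.3 and 16.01. The MAFG log2 difference was -0.74 (adjusted p = 1.02e-05) and -0.53 after centring (adjusted p = 0.00472). That of NFE2L2 was -0.53 (adjusted p = 1.68e-05) and -0.32 after centring (adjusted p = 0.00245). Both held in 8 of 8 fits without 1 list. They are values of whole peaks, and the part of peak width in them was not tested. BACH1 and KEAP1 were also lower under TWEAK (adjusted p = 0.00393 and 0.00351), and not after centring (0.146 and 0.153).

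Without TWEAK, MAFG, MAFK, BACH1 and KEAP1 were lower in Fn14 KO cells on the mean over lines (limma adjusted p = 0.0197, 0.0273, 0.0237 and 0.0261), and none of the 4 passed after centring. These counts have a background: 4 members lower and 0 higher in untreated cells stood beside 14.5% of all start sites lower and 0.220% higher, and 4 lower and 0 higher under TWEAK beside 41.1% lower and 3.32% higher. The median difference of all start sites was -0.14 untreated and -0.20 under TWEAK on the log2 scale. The lowest median start-site enrichment was found among MDA-MB-231 Fn14 KO lists (7.74 to 9.05, beside 8.66 to 9.47 in Hs578T lists), and its part in the result was not tested beyond the centred values. At MAFK the lines went opposite ways, with 39.9 and 32.9 in control and 23.1 and 18.3 in Fn14 KO untreated MDA-MB-231 lists but 33.8 and 26.8 in control and 34.3 and 33.8 in Fn14 KO Hs578T lists. At BACH1 the mean untreated difference, on unlogged values, was -6.27 in MDA-MB-231 and 0.07 in Hs578T. The untreated calls held in 5 of 8 fits without 1 list at MAFG, 3 at MAFK, 4 at BACH1 and 4 at KEAP1.

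On covered length no member passed the test between untreated genotypes on the mean over lines (0.340% of all genes were higher and 0.212% lower). At MAFK the lines went opposite ways there, with -6.35 kb in MDA-MB-231 and 4.44 kb in Hs578T. Under TWEAK MAFK was higher in Fn14 KO cells by 6.30 kb (limma adjusted p = 0.00297), which came from Hs578T (12.99 kb) and not from MDA-MB-231 (-0.39 kb), and the exact permutation p was 0.278. The BACH1 difference was -6.05 kb (-6.18 in MDA-MB-231 and -5.92 in Hs578T; exact permutation p = 0.0556; adjusted p = 0.0393), a call that held in 1 of 8 fits without 1 list. Among all genes 9.88% were higher and 9.84% lower. These comparisons share their TWEAK-treated control lists with the comparison of treatments.

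Between lines, covered length was lower in MDA-MB-231 than in Hs578T at 5 members and higher at 0, beside 47.1% of all genes lower and 3.56% higher. MAFK differed by -8.09 kb (exact permutation p = 0.00154; limma adjusted p = 1.29e-05), NFE2L2 by -6.84 kb (adjusted p = 0.00163), BACH1 by -3.95 kb, MAFF by -3.94 kb and MAFG by -3.24 kb. Hs578T lists cover more of the genome (77.8 to 88.9 Mb against 64.2 to 82.9 Mb). Scaled to the same total, MAFK remained lower on average (-3.84 kb, limma adjusted p = 0.00195), but only in Fn14 KO cells. There the scaled means of MDA-MB-231 and Hs578T were 22.4 and 30.2 kb untreated and 22.9 and 31.6 kb with TWEAK. In control cells they were 28.2 and 26.97 kb untreated and 21.5 and 21.7 kb with TWEAK. Once scaled, MAFF (-0.57 kb, adjusted p = 0.462) and NFE2L2 (-2.05 kb, adjusted p = 0.0925) did not pass, while MAFG and BACH1 turned to 1.34 and 1.25 kb and did not pass in limma (adjusted p = 0.0998 and 0.247), though MAFG had an exact permutation p of 0.0154. KEAP1 differed by 0.08 kb as measured and by 0.59 kb once scaled (adjusted p = 0.0126).

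At the start sites 3 members were higher in MDA-MB-231 and 1 lower, beside 29.7% and 17.5% of all start sites. MAFG had the widest gap, with 14.1 to 31.6 in the 8 MDA-MB-231 lists and 11.6 to 22.3 in the 8 Hs578T lists. Within each of the 4 combinations of genotype and treatment, both MDA-MB-231 lists were above both Hs578T lists. The mean difference was 9.03 (exact permutation p = 0.00154), or 0.66 on the log2 scale (limma adjusted p = 2.06e-07). KEAP1 (0.25, adjusted p = 0.00258) and NFE2L2 (0.22, adjusted p = 0.00381) were higher in MDA-MB-231, but the lists of the lines overlapped in Fn14 KO cells at both genes. MAFK was lower on average (-0.21, adjusted p = 0.0122), with an exact permutation p of 0.373 on the unlogged values. Only Fn14 KO cells were lower at MAFK, with means of 20.7 against 34.1 untreated and 18.8 against 32.9 with TWEAK. In control cells MDA-MB-231 was higher, 36.4 against 30.3 untreated and 33.8 against 25.1 with TWEAK.

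The partners and targets of these genes were taken from lists chosen with earlier results of these data known. Of 20 NRF2 target genes tested on covered length, 1 rose and 1 fell with TWEAK in control cells, beside 7.54% of all genes higher and 11.3% lower. On scaled lengths 4 rose and 1 fell, beside 14.5% and 15.4%. ME1, the malic enzyme, rose by 1.67 kb (limma adjusted p = 0.00895). The list's median was -0.22 kb, beside -0.20 kb over all genes. At their start sites, of 19 tested, 8 rose and 0 fell, beside 13.4% of all start sites higher and 7.32% lower. The list's median log2 change was 0.28, beside 0.04 over all start sites. After centring the count was again 8 and 0, beside 13.1% and 13.6%. In Fn14 KO cells 0 were called. The difference between genotypes was higher at 6 and lower at 0, beside 7.50% and 2.70% of all start sites, and after centring at 5 and 0, beside 7.35% and 6.41%.

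Among the 8, and named after their values were seen, were TALDO1 (0.86, adjusted p = 8.26e-08) of the pentose phosphate pathway, TXN (0.53), SRXN1 (0.37) and PRDX1 (0.41) of the thioredoxin and peroxiredoxin system, the ferritin gene FTH1 (0.44), the cystine transporter gene SLC7A11 (0.36) and the quinone reductase gene NQO1 (0.35). HMOX1, which BACH1 represses, gave 0.15 (adjusted p = 0.423).

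Of 7 genes of NRF2 turnover, CUL3, the ligase scaffold that KEAP1 docks to, rose in covered length by 3.30 kb (adjusted p = 0.00378) and SQSTM1, which draws KEAP1 into autophagy, by 7.04 kb (adjusted p = 0.0145), and 0 fell, where 7.54% of all genes were higher and 11.3% lower. On scaled lengths 4 of the 7 rose and 0 fell (14.5% and 15.4% of all genes). The list's median was 0.81 kb. Their start sites did not pass, whereas those of RBX1 (0.45) and PALB2 (0.45) did, 2 higher and 0 lower of 7 beside 13.4% and 7.32% of all start sites. For neither CUL3 nor SQSTM1 did the difference between genotypes pass on covered length (adjusted p = 0.0690 and 0.212). Of 8 related factors, NFE2L3, an NRF2 relative, rose by 5.50 kb (adjusted p = 0.00665), 0 fell, and the median was 0.16 kb, against the same shares of all genes, and on scaled lengths 3 rose and 0 fell. At start sites 6 of these could be tested, and NFE2L3 rose by 1.04 on the log2 scale (adjusted p = 1.80e-10), while 2 fell, among them the large MAF gene MAFA, named after its value was seen, at -0.39 (adjusted p = 0.0141). These 1 higher and 2 lower (1 and 3 after centring) stood beside 13.4% and 7.32% of all start sites (13.1% and 13.6%).

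The genes whose covered length followed each member most closely over the 16 lists were sought among those with loci apart from it, as a description. They were PTPRE (Pearson r = 0.978), PSAP (0.965) and NRP2 (0.961) for MAFF, ZNF629 (0.946), RERE (0.930) and METTL15 (0.929) for MAFG, ASCC1 (0.983), ANAPC16 (0.983) and FKBP10 (0.972) for MAFK, and AGAP9 (0.952), GADD45A (0.948) and TERB1 (0.934) for NFE2L2. For BACH1 they were MGAT4C (0.924), ATG7 (0.921) and RUSC2 (0.918), and for KEAP1 C3orf18 (0.910), TBXA2R (0.873) and RAB31 (0.869). The lists share their total covered length, with which the members' own lengths had an r of 0.924 at MAFG, 0.872 at MAFF, 0.839 at NFE2L2, 0.790 at MAFK, 0.549 at BACH1 and 0.385 at KEAP1.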

How the data were processed

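H3K27ac ChIP-seq peaks of 16 samples were used as deposited, 1 list per sample. Per the study's methods, the authors used FastQC and Trimmomatic on the reads, Bowtie2 for alignment to hg38, MACS2 with input subtraction for peak calling and bedtools for removal of blacklisted regions. Tool versions were not given in the sources used here. Chromatin had been sheared to 200 to 500 bp. Each deposited peak carries a score, a ratio (its fold enrichment over local background, 1 value per broad peak), and the −log10 of its p-value and of its q-value. The score and the −log10 values deposited by the authors served only to filter or rank peaks. The lists hold no reads, so DiffBind, the test the study used, could not be run, sequencing depth is not known and intervals that depend on it are not given. A peak near the calling threshold can be present in one list and missed in another.

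Samples were grouped by title. Per list and gene, peaks, covered length and highest fold enrichment were computed (python 3.11.15, numpy 2.4.6, pandas 2.3.3; GENCODE 44) near the canonical start site (2 kb) and in the gene body extended by 50 kb. Contrasts were tested with exact two-sided permutation tests with labels exchanged within line, genotype and treatment strata (smallest p 0.0556 within 1 genotype or treatment, 0.00154 over all lists), 36 tests per measure. Across genes, limma 3.58.1 (R 4.3.3, limma-trend, 8 group means) was fitted to covered length in kb (genes covered in at least 2 lists) and to log2 start-site fold enrichment (genes with a peak in all 16), with Benjamini-Hochberg adjustment over all genes tested and a threshold of 0.05. "Centred" values had the median log2 value of the list subtracted, and "scaled" lengths were set to the mean total covered length. Tested on simulated data, the fits called 166 of 200 shifted genes on covered length among 17915 and 170 of 200 on start-site fold enrichment among 10909, with 10 and 7 unshifted genes called. Each shift was a fixed multiple of the gene's own spread between replicates, with independent normal noise. No simulated list differed from the others as a whole, so these rates do not cover the differences in list totals seen here. Peaks sharing at least 1 bp were merged into regions, kept with a peak in at least 2 lists. Coordinates are 1-based on hg38. Alternatives tried were a 20 kb flank, only peaks with a −log10 q of at least 2, lists trimmed to equal peak numbers, scaling, all transcript start sites, and leaving out each list.

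The members and the gene lists were chosen with earlier results of these data known. Named by rule were all 6 members, the regions gained or lost with TWEAK in both lines (and the widest per member in 1 line), the listed genes past the threshold on covered length, and the 3 genes closest to each member by Pearson r. Counts over a list include 2 genes whose own values are not reported here. The region-level limma test and the genes and regions named from start-site or region values were chosen after seeing the data. Replicate numbers did not pair the samples: the correlation of replicate differences between untreated and TWEAK lists ran from -0.0635 to 0.237 on covered length and from -0.0189 to 0.173 on start-site fold enrichment. No 2 lists were identical.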

Additional observations from a re-analysis of the deposited data

Results flagged for a closer look

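The response to TWEAK differed between control and Fn14 KO cells, by a test of the difference itself, at several members. On covered length the difference was -7.25 kb at MAFK and 8.49 kb at BACH1, and on start-site fold enrichment it was 5.83 at NFE2L2 (exact permutation tests over 16 lists, as given above). These permutation p-values were not adjusted for the 36 tests per measure. As measured, limma-trend called MAFK (adjusted p = 0.0284, held in 7 of 16 fits without 1 list) and not BACH1 (0.0872) or NFE2L2 (0.0893). Of the 41 member regions tested with limma on fold enrichment, the difference was higher at 9 and lower at 2, beside 20.1% and 8.47% of all regions. The log2 difference was 0.66 and 0.50 at the MAFF regions at -22.7 and 27.9 kb. It was -0.69 and -0.81 at the MAFK regions at -24.6 and 24.9 kb. At NFE2L2 it was 1.24, 0.51 and 0.33 at 92.5, 12.7 and 0.4 kb. At BACH1 it was 0.58, 1.14, 0.78 and 1.14 at -116.4, -102.5, -90.1 and 358.0 kb. The last of the NFE2L2 regions held in 5 of 16 fits without 1 list and did not pass after centring (adjusted p = 0.111). At the MAFF region at 27.9 kb, Fn14 KO cells gave -0.28 and control cells 0.22. At MAFK, untreated Fn14 KO lists of MDA-MB-231 already covered only 21.9 and 19.0 kb, beside 19.9 and 20.7 kb in TWEAK-treated control lists. These Fn14 KO lists were also below the untreated control lists of that line at both MAFK regions. The part of this low start in the differences was not tested.

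The lines went opposite ways between genotypes at some members, with both Fn14 KO lists below both control lists in MDA-MB-231 and above them in Hs578T. This difference between lines was not tested. The share of all genes with such a split is not given here, so the splits are not shown to be particular to these members. Under TWEAK, covered length in Fn14 KO minus control cells was -2.15 kb in MDA-MB-231 and 5.06 kb in Hs578T at MAFF, and -3.88 and 4.35 kb at NFE2L2. In untreated cells it was -6.35 and 4.44 kb at MAFK. Start-site fold enrichment at MAFK differed by -15.7 in MDA-MB-231 and 3.79 in Hs578T without TWEAK, and by -15.1 and 7.82 with TWEAK. On scaled lengths the NFE2L2 genotypes overlapped in both lines, and untreated MAFK enrichment divided by the list median overlapped in Hs578T. The MDA-MB-231 Fn14 KO lists also included the lowest median start-site enrichment over all genes (7.74 to 9.05, beside 8.66 to 9.47 in Hs578T lists), whose part in these values was not tested.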

How the results depend on the processing

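The opposite changes of MAFK and BACH1 on covered length kept their direction under every alternative run, leave-outs included. limma-trend put the control changes past its threshold where the permutation test cannot go, at -6.67 kb for MAFK (-5.98 scaled) and 6.33 kb for BACH1 (7.48 scaled), and did not call the BACH1 difference of 8.49 kb, which it called on scaled lengths (8.87 kb, adjusted p = 0.00257). For NFE2L2 start sites it called the control change (0.27, 0.23 centred, but not 0.20 after division by the list median) and not the difference (0.33, or 0.25 and 0.26 after scaling and centring). With all start sites the BACH1 difference was 11.7 and its line difference 2.04. The following had no call in either setting unless stated, and the cause of a changed sign was not tested. With peaks of a −log10 q of at least 2, covered length gave -0.91 kb for the NFE2L2 difference, -0.097 for MAFK in Fn14 KO cells and -0.023 for NFE2L2 between untreated genotypes. With 20 kb flanks it gave -0.769 for MAFF between untreated genotypes, -0.0615 for MAFG between TWEAK genotypes and -0.0559 for KEAP1 between lines. Scaled, NFE2L2 between TWEAK genotypes gave -0.361, and MAFG and BACH1 between lines, called as measured, 1.34 (exact permutation p = 0.0154, not called by limma) and 1.25. Start-site enrichment divided by the list median, then in the scaled and centred limma fits, gave -0.0499, -0.0249 and -0.00207 for BACH1 in control cells, and for the difference -0.0775, -0.0425 and -0.0396 at MAFF, -0.0514, -0.0508 and -0.0479 at BACH1 and -0.0550, -0.0404 and -0.0375 at KEAP1. For BACH1 in Fn14 KO cells the ratio gave 0.00152 and the limma fits 0.0216, 0.0260 and 0.0458, and for MAFF between TWEAK genotypes the centred fit gave 0.00615. Regions gained in control cells were 1 in MDA-MB-231 and 1 in Hs578T both with the stricter q and with trimmed lists, those lost in Hs578T 0 in both, and with peaks over at least 50% of a region those lost were 2 and 4. After centring, lower member regions numbered 7 in control cells and 4 for the difference.

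With the replicate number as a block, the smallest p is 0.125 within 1 genotype or treatment, and of the comparisons over all lists the MAFG start-site difference of 4.40 came past the threshold (exact permutation p = 0.0312), the NFE2L2 start-site difference between lines of 4.09 no longer did (exact permutation p = 0.0547), and no other call changed. No sample pairing is given by the labels.

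Leaving out 1 list at a time moved covered length in Fn14 KO cells between -0.71 and 0.95 kb at MAFF, -0.78 and 2.01 at MAFG, -0.45 and 1.61 at MAFK, -0.70 and 2.67 at NFE2L2 and -0.34 and 0.034 at KEAP1, in control cells between -2.96 and 0.52 at MAFG, and the difference between -0.54 and 3.16 at NFE2L2. Between untreated genotypes the ranges were -0.21 to 1.45 at MAFF, -2.57 to 0.91 at MAFG, -0.31 to 3.39 at NFE2L2 and -0.49 to 0.048 at KEAP1, under TWEAK -0.58 to 1.05 at NFE2L2, and between lines -4.11 to -2.38 at MAFG and -0.053 to 0.22 at KEAP1. Start-site enrichment in Fn14 KO cells ran from -0.045 to 1.04 at MAFF, -2.07 to 0.34 at NFE2L2, -1.12 to 1.04 at BACH1 and -0.60 to 2.86 at KEAP1. The difference ran from -0.16 to 1.25 at MAFF, -0.50 to 1.66 at BACH1 and -0.68 to 2.77 at KEAP1, and the line difference from -0.62 to 0.45 at BACH1. In control cells the lost regions numbered 1 to 3 for MDA-MB-231 and from 1 to 2 for Hs578T, lower regions in control cells 2 to 5 and higher regions for the difference 8 to 15.

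Over all genes, scaling moved the split of control calls on covered length from 1350 higher and 2029 lower to 2589 and 2762, and that of the difference from 602 and 344 to 1380 and 1288. Centring moved start-site calls from 1462 and 798 to 1426 and 1480 in control cells, from 818 and 294 to 802 and 699 for the difference, from 24 and 1580 to 111 and 205 between untreated genotypes, and from 362 and 4489 to 1618 and 1742 under TWEAK. Between lines, scaling turned 638 and 8439 into 4300 and 2914. Over regions, centring turned 7371 and 4567 into 6472 and 6847 in control cells. Depth is unknown, and peaks near the calling threshold limit the gained and lost calls.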
